A study of Mus musculus with 4 samples.

Results

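Among CXC chemokines that act on neutrophils, 6 ligands and 2 receptors were followed through the mouse lung: *Cxcl1*, *Cxcl2*, *Cxcl3*, *Cxcl5*, *Cxcl15* and *Cxcl12*, and the receptors *Cxcr2* and *Cxcr4*. These 8 genes were taken by symbol from the 32285 genes of the count tables, and all 8 had at least 1 UMI (unique molecular identifier, the tag that marks 1 captured transcript). Cells came from the left lung lobe of C57BL/6 wild-type male mice and were profiled by droplet-based scRNA-Seq, with the dissociated cells of 3 mice pooled in each of 4 libraries. A nonventilated and a ventilated library were made at each of 2 ages: from young mice, aged 2 to 3 months, and from aged mice, aged 22 months. Ventilated mice received 3 hours of mechanical ventilation at a tidal volume of 20 mL/kg, capped at a fixed maximum volume. Mice heavy enough to reach the cap received less per body weight, and the study's aged mice were in general heavier than its young ones. Ventilated mice also received anesthesia (ketamine and medetomidine), buprenorphine, oxygen, an endotracheal tube, arterial and venous lines and Ringer's lactate. Nonventilated mice were naive. The aged mice had been fed a restricted diet, the diet of the young mice is not given in the sources used here, and all cells were cryopreserved. Since each group was 1 pooled library, no test across mice could be made. Ventilation cannot be told apart from the drugs, oxygen, vascular lines and fluid that went with it or from differences between pools. Age cannot be told apart from diet or, in ventilated mice, from the tidal volume per body weight.

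Chemokines are small secreted proteins that guide leukocytes. CXCL1, CXCL2, CXCL3 and CXCL5 carry the glutamate-leucine-arginine (ELR) motif and draw neutrophils from the blood into inflamed tissue, chiefly through CXCR2. CXCL12 acts on CXCR4 and holds neutrophils and their precursors in the bone marrow and, in part, in the lung vasculature, so that CXCR2 and CXCR4 pull these cells in opposite directions. CXCL15, also called lungkine, carries the ELR motif too and is made by lung epithelium.

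The 5 ELR ligands lie together within 146.6 kb on chromosome 5 of GRCm38, the same build as mm10. The annotated gene spans are chr5:90759360-90761624 for *Cxcl5*, chr5:90786103-90789600 for *Cxcl3*, chr5:90794534-90803067 for *Cxcl15*, chr5:90891241-90893115 for *Cxcl1* and chr5:90903871-90905938 for *Cxcl2*, all on the plus strand. *Cxcl12* lies apart at chr6:117168535-117181367 on the plus strand, *Cxcr2* at chr1:74153989-74161246 on the plus strand and *Cxcr4* at chr1:128588199-128592293 on the minus strand. The bases from 150 to 31 before the RefSeq start (GRCm38.p6, plus strand, 120 bases) are shown for *Cxcl1*, *Cxcl2* and *Cxcl3*, 3 of the ELR ligands that were higher after ventilation in the young library, at chr5:90891095-90891214, chr5:90903749-90903868 and chr5:90785951-90786070. Capitals mark the longest run of bases that the 3 upstream stretches share.

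Cxcl1: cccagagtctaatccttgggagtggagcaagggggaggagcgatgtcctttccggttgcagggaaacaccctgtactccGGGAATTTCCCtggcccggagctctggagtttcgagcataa
Cxcl2: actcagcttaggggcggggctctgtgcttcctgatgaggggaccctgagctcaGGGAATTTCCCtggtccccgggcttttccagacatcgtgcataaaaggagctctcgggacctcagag
Cxcl3: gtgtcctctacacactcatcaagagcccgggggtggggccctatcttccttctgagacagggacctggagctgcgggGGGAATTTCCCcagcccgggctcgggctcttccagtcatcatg

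The shared run, GGGAATTTCCC, is 11 bases long and has the letters of an NF-kappaB motif. Searched on both strands (GGGAAATTCCC on the other), it was present in 14 of 32851 windows of 300 bases around annotated starts (0.0426%). Of the 7 members with such a window, which leaves out *Cxcl5*, these 3 held it. The run was chosen because the 3 promoters share it, so its presence is a description of the sequences and not of binding.

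Of 15428 barcodes, 10160 cells passed the filter, slightly fewer than the number the study retained, with 2171 to 2976 cells and 22814008 to 28010151 UMIs per library. The cells formed 30 clusters, which were given 21 class names from markers. Each name below means cells that resemble that type ("alveolar fibroblast-like", "neutrophil-like" and so on), and all names were rebuilt here. The interstitial macrophage cluster was led by *C1qa*, *C1qb* and *C1qc*, but its 10 leading genes also held *Mgl2* and *Cd209a*, which were among the dendritic markers used. Whether dendritic cells were among its cells was not tested. Levels are UMIs of a gene in a class, scaled to 1000000 UMIs of that class and library (CPM), followed where given by exact 95% intervals that cover counting error only. CPM from this 3′ assay is not corrected for transcript length, so levels are compared between libraries and classes and not between genes. A member was said to rise or fall where its level changed more than 2-fold (1 UMI added to each sum) with a counting interval that left out 1, given a mean of at least 50 CPM over both libraries and 20 UMIs in 1 of them. Genes under this floor were not tested. The cells of 3 classes were split by ventilation at the cluster level. General capillary cells lay mainly in cluster 0 when nonventilated and cluster 1 when ventilated, alveolar fibroblasts in clusters 6 and 3, and classical monocytes in clusters 20 and 16. In all, 23 barcode sequences occurred in 2 libraries, and 8 of these sequences were kept in both. Where 4 values follow each other below, they stand for young cells without and with ventilation and then aged cells without and with it.

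Over all cells kept, the ligands differed in which libraries were high. *Cxcl1* was at 39.6 CPM without and 222 with ventilation in young cells, and 111 without and 103 with it in aged cells. *Cxcl2* was at 196, 717, 197 and 933 CPM in the same order. Thus *Cxcl2* was high in both ventilated libraries, while *Cxcl1* stood out in the young ventilated library alone. *Cxcl3* was low throughout, at 1.41, 19.2, 1.85 and 15.3 CPM, and *Cxcl5* was counted in the cells kept only after ventilation, with 173 UMIs in young and 36 UMIs in aged cells. *Cxcl12* ran the other way, at 134 and 42.2 CPM in young and 162 and 61.1 CPM in aged cells, nonventilated first. *Cxcl15* was at 41.3, 43.1, 67.4 and 39.4 CPM, *Cxcr2* at 27.6, 39.1, 7.95 and 73.1 CPM and *Cxcr4* at 56.6, 35.6, 70.0 and 61.1 CPM. These sums can also move with the mix of cells in each library.

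The members differed in the classes that held most of their UMIs. Fibroblasts held most *Cxcl1*, with 38.5% of its UMIs in alveolar and 26.3% in adventitial fibroblasts, followed by interstitial macrophages with 13.3%. In both nonventilated libraries, adventitial fibroblasts held more of its UMIs than alveolar ones (307 against 177 in young and 1263 against 691 in aged cells). *Cxcl2* and *Cxcl3* were mainly myeloid. Neutrophils held 38.6% and interstitial macrophages 27.1% of *Cxcl2*, although interstitial macrophages held more of it in both nonventilated libraries (2204 against 1278 UMIs in young and 2261 against 612 in aged cells). Neutrophils held 35.6% and alveolar macrophages 24.2% of *Cxcl3*. Interstitial macrophages held 50.2% of *Cxcl5* and adventitial fibroblasts 45.0%. Alveolar type II (AT2) cells held 93.6% of *Cxcl15*, general capillary cells 69.8% of *Cxcl12* and neutrophils 94.4% of *Cxcr2*. *Cxcr4* was spread the most widely, with 34.7% in nonclassical monocytes, 17.6% in classical monocytes and 14.3% in neutrophils.

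**Figure D1:**
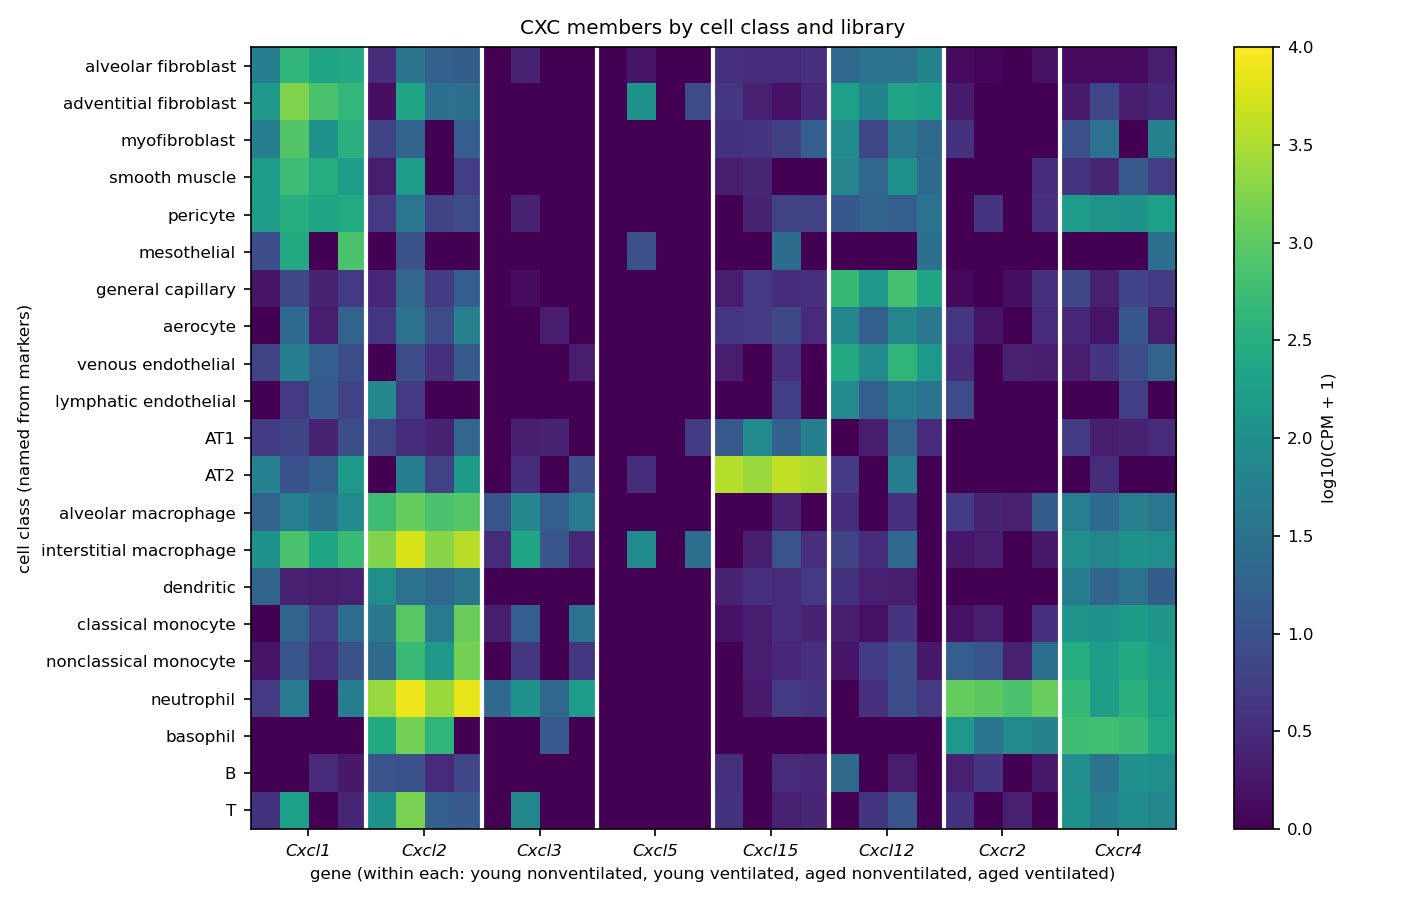
Levels of the 8 members in each named class and library, as log10 of CPM plus 1 on a color scale from 0 to 4; rows are classes and columns are libraries within each gene. *Cxcr2* and *Cxcl15* are each concentrated in 1 class (94.4% and 93.6% of their UMIs), whereas *Cxcr4* is spread over many.

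*Cxcl1* was the fibroblast member. In alveolar fibroblasts, which line the gas-exchange septa, it was at 51.8 CPM (44.5 to 60.0) without and 421 (406 to 437) with ventilation in young cells, and 229 (212 to 246) without and 255 (239 to 272) with it in aged cells. It rose 8.13-fold (6.98 to 9.51) in young cells, while the aged ratio was 1.12 (1.01 to 1.23). Between nonventilated libraries, the aged level was 4.41-fold (3.74 to 5.24) higher. The median cell was at 0, 59.0, 0 and 0 CPM in the 4 libraries, and the upper quartile at 0, 400, 0 and 116 CPM. Most cells of both nonventilated libraries thus held no *Cxcl1* UMI, and these sums rested on a minority of the class. The direction of the aged ratio after ventilation was not firm: the log2 ratio, 0.16, turned to -1.005 with a lower limit on UMIs (21021 per cell), to -0.43 with a mitochondrial limit of 5% and to -0.56 at a clustering resolution of 0.18. *Cxcl1* was the 1 member tested in this class: it rose where 11.8% of all tested genes rose in young cells, did not rise where 6.22% did in aged cells, and was higher with age where 0.662% were. Ventilated cells lay mainly in another cluster than nonventilated cells of the same name.

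Markers of other cell types were summed in alveolar fibroblasts too. The 8 adventitial markers were at 854, 816, 709 and 694 CPM, which is 14.1%, 12.8%, 13.2% and 8.15% of their level in adventitial fibroblasts. At the adventitial ratio of *Cxcl1* to these markers, they would come with 20.6, 217, 97.8 and 36.6 CPM of *Cxcl1*, against the 51.8, 421, 229 and 255 CPM measured. The 8 markers of alveolar fibroblasts themselves were lower with ventilation, at 14309, 4920, 13223 and 6600 CPM. The summed list of classical monocyte markers was higher with it, at 1035, 1912, 1131 and 1665 CPM, and that of neutrophil markers lower, at 818, 104, 667 and 199 CPM. These sums were not split by gene, and whether the fibroblasts made some of these genes themselves was not tested. They therefore do not measure monocyte or neutrophil RNA. The part of RNA from other cell types in the *Cxcl1* levels was not tested.

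Adventitial fibroblasts, which surround vessels and airways, had the highest young ventilated level of *Cxcl1*. It was at 146 CPM (130 to 164) without and 1699 (1611 to 1791) with ventilation in young cells, and 739 (699 to 781) without and 449 (395 to 508) with it in aged cells. The young library rose 11.6-fold (10.3 to 13.2) after ventilation, and the aged ratio was 0.607 (0.528 to 0.696), so that the intervals lay on opposite sides of 1. Without ventilation, the aged level was 5.06-fold (4.46 to 5.75) higher, whereas with ventilation it was 3.79-fold (3.31 to 4.35) lower. The class had 137, 51, 114 and 36 cells in the 4 libraries, and the 5 cells with the most *Cxcl1* held 41.7%, 49.2%, 32.5% and 68.7% of its UMIs. Even so, the median cell was at 0, 655, 234 and 127 CPM, the same order as the sums.

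The share of adventitial fibroblasts with a *Cxcl1* UMI was 46.0%, 92.2%, 71.1% and 61.1% at median depths of 15680 to 17329 UMIs, and 11.7%, 51.0%, 25.4% and 27.8% once each cell was thinned to 1000 UMIs. In B cells, which should lack the gene, the share was at most 1.98% at median depths of 7467 to 11092 UMIs, and 0% after thinning. In this class, *Cxcl1* rose in young cells beside 15.9% of all tested genes and did not rise in aged cells, where 9.24% did. With age, it was higher in nonventilated cells beside 1.35% of tested genes and lower in ventilated cells beside 3.51%. *Cxcl2* (0.476 and 231 CPM) and *Cxcl5* (0 and 110 CPM) passed the floor in young cells only through the ventilated library, so they had to differ, and their sums rested on few cells: 5 cells held 92.0% of the 188 *Cxcl2* UMIs, and 4 cells held all 90 *Cxcl5* UMIs of the young ventilated library.

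Other mesenchymal classes also had more *Cxcl1* in the young ventilated library. Myofibroblasts were at 50.5, 821, 111 and 344 CPM, smooth muscle cells at 160, 572, 302 and 169 CPM, and pericytes, the contractile cells of small vessels, at 163, 333, 234 and 274 CPM, in the order of libraries given above. The ratio after ventilation in young and aged cells was 16.3 (10.1 to 27.9) and 3.10 (1.84 to 5.35) in myofibroblasts, 3.58 (2.96 to 4.36) and 0.559 (0.426 to 0.726) in smooth muscle cells, and 2.05 (1.59 to 2.66) and 1.17 (0.899 to 1.53) in pericytes. In each of these 3 classes, the young ratio exceeded the aged ratio. Mesothelial cells, which cover the lung surface, were at 8.19, 267, 0 and 746 CPM from 10, 14, 3 and 3 cells. In general capillary cells, *Cxcl1* was at 0.636 to 6.44 CPM.

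**Figure D2:**
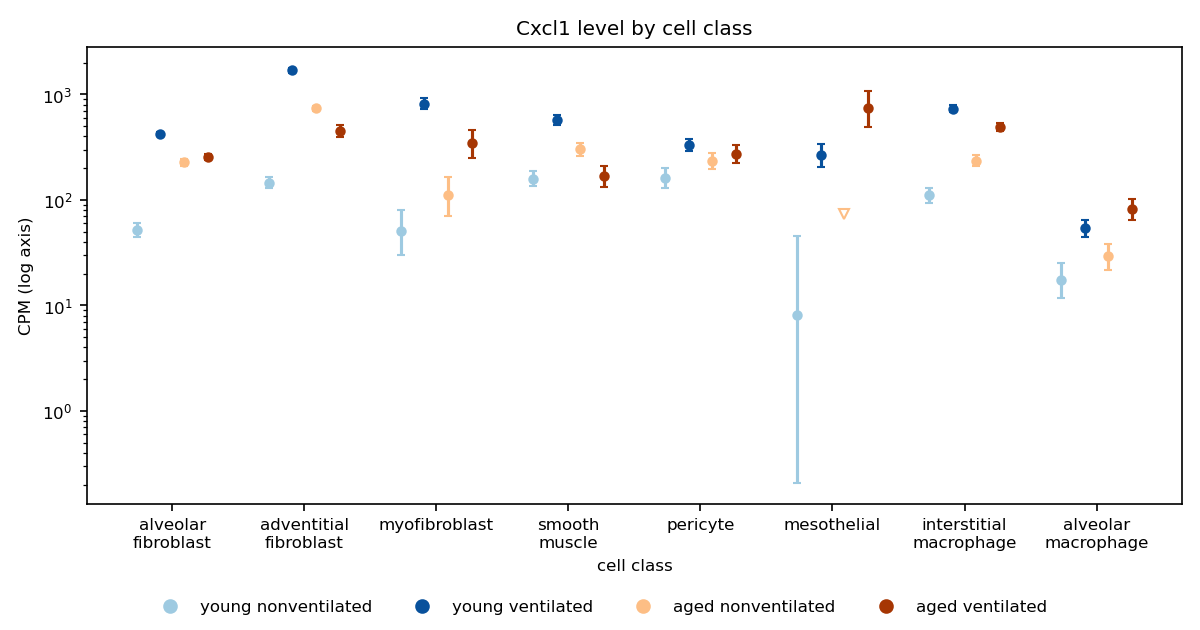
*Cxcl1* in CPM (log axis) by class and library; points are sums over the cells of a class, error bars are exact 95% counting intervals, and open triangles stand for 0 UMIs and are drawn at the level of 3 counts. The young ventilated library is the highest in both fibroblast classes, at 421 and 1699 CPM, and the young nonventilated library is the lowest.

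Genes of NF-kappaB feedback, the inhibitors and subunits that this transcription factor induces, were set beside *Cxcl1*. In alveolar fibroblasts, 7 of 11 tested rose in young cells, with a median log2 ratio of 1.43 (0.02 over all tested genes), and 1 of 10 rose in aged cells, with a median of -0.01 (-0.01). In adventitial fibroblasts, 8 of 11 rose in young cells, with a median of 1.50 (0.06). In aged cells of this class, none rose, 1 fell (*Nfkbiz*, an atypical inhibitor of the IkappaB family, 0.411-fold) and the median was -0.30 (0.05). The most strongly raised were *Nfkb1*, a subunit of the factor (5.85-fold), and *Tnip1*, a partner of the A20 inhibitor (5.76-fold), in young alveolar fibroblasts, and *Tnip1* (7.82-fold) and *Nfkb2*, another subunit (3.68-fold), in young adventitial fibroblasts. Between nonventilated libraries, 4 of 11 were higher in aged adventitial fibroblasts, with a median of 0.66, and 1 of 8 in aged alveolar fibroblasts, with a median of 0.55. The part of NF-kappaB in the *Cxcl1* levels was not tested.

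Genes induced early by tissue dissociation (*Fos*, *Jun*, *Egr1* and others) were summed in the same cells. They were at 18186, 18803, 19466 and 18713 CPM in alveolar fibroblasts and 18496, 15581, 18373 and 16664 CPM in adventitial fibroblasts, in the order of libraries above. In young fibroblasts, 2 of 15 rose in the alveolar class (*Hspb1* and *Ier3*) and 1 of 16 in the adventitial class (*Ier3*), with median log2 ratios of 0.12 and -0.41. In aged fibroblasts, 1 of 15 rose and 1 fell in the alveolar class, and none of 15 rose or fell in the adventitial class, with medians of -0.15 and -0.11. Their part in the *Cxcl1* levels was not tested.

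Interstitial macrophages were the main immune class with *Cxcl1*. It was at 111 CPM (93.7 to 131) without and 734 (678 to 793) with ventilation in young cells, and 236 (209 to 266) without and 495 (455 to 537) with it in aged cells. It rose 6.59-fold (5.49 to 7.97) in young and 2.10-fold (1.81 to 2.43) in aged cells. Both ventilated libraries were above both nonventilated libraries here. The share of interstitial macrophages with UMIs of both *Cxcl1* and *Cxcl2* was 23.5%, 44.8%, 34.1% and 41.8%. Alveolar macrophages were at 17.6, 54.0, 29.1 and 81.9 CPM. In T cells of the young ventilated library, 56 of 58 *Cxcl1* UMIs were in 1 cell, and in AT2 cells of the aged ventilated library, 33 of 35 were in 1 cell.

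*Cxcl2*, a ligand that neutrophils and macrophages make themselves, rose in neutrophils at both ages. Its level in neutrophils was 2392 CPM (2263 to 2527) without and 7839 (7674 to 8008) with ventilation in young cells, and 2511 (2316 to 2718) without and 7062 (6919 to 7207) with it in aged cells. The rise was 3.28-fold (3.09 to 3.48) in young and 2.81-fold (2.59 to 3.06) in aged cells. Between ages, the ratio was 1.05 (0.952 to 1.16) without and 0.901 (0.875 to 0.928) with ventilation. The rise was not carried by few cells, as the median young neutrophil went from 1247 to 6770 CPM and the median aged one from 769 to 5750 CPM. The share of neutrophils with a *Cxcl2* UMI was 75.2%, 97.3%, 67.8% and 96.1%, and after thinning 58.3%, 93.9%, 51.7% and 93.6%. In B cells it was 1.98% to 8.11%, and at most 2.70% after thinning, although neutrophils were the shallower class, with median depths of 4000 to 5113 UMIs.

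In neutrophils, *Cxcl2* rose beside 10.7% of all tested genes in young and 7.63% in aged cells. The median log2 ratio over all tested genes of this class was -0.31 in young and -0.35 in aged cells, and the log2 ratio of *Cxcl2* was 1.71 and 1.49 before and 2.02 and 1.84 after that median was subtracted.

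In monocytes, *Cxcl2* rose from low levels. Classical monocytes, the inflammatory monocytes that enter tissue, were at 38.6, 912, 45.8 and 1246 CPM, a rise of 23.6-fold (18.5 to 30.8) in young and 27.2-fold (21.1 to 35.7) in aged cells. Nonclassical monocytes, which patrol the vessel wall, were at 23.5, 488, 143 and 1437 CPM, a rise of 20.8-fold (14.6 to 30.6) and 10.0-fold (9.09 to 11.1). In this class, aged cells were above young cells both without ventilation, by 6.11-fold (4.27 to 9.04), and with it, by 2.95-fold (2.73 to 3.18). The share of nonclassical monocytes with a *Cxcl2* UMI was 5.56%, 33.6%, 14.1% and 55.9%, and 0.694%, 17.3%, 6.67% and 33.8% after thinning. *Cxcl2* rose beside 10.5% and 10.0% of tested genes in young and aged classical monocytes, and beside 8.28% and 5.84% in young and aged nonclassical monocytes. Except in aged nonclassical monocytes, it passed the floor only through the ventilated library and so had to differ.

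The 8 neutrophil markers were also counted in monocytes. Their summed level was 306, 1559, 305 and 1938 CPM in classical monocytes and 792, 989, 291 and 4103 CPM in nonclassical monocytes, against 86688 to 156466 CPM in neutrophils. At the ratio of *Cxcl2* to these markers in the neutrophils of the same library, the markers would come with 8.18, 82.7, 8.82 and 87.5 CPM of *Cxcl2* in classical monocytes and 21.2, 52.4, 8.43 and 185 CPM in nonclassical monocytes. The measured *Cxcl2* exceeded these values in all 4 libraries of both classes, by the least in young nonventilated nonclassical monocytes (23.5 against 21.2 CPM). These values assume that stray neutrophil RNA holds *Cxcl2* and the markers in the same ratio as the neutrophils counted. The part of neutrophil RNA in the monocyte levels was not tested. Classical monocytes lay in different clusters with and without ventilation. The early dissociation genes summed to 12211, 8231, 9679 and 8310 CPM in neutrophils, 5011, 3223, 4411 and 2841 CPM in classical monocytes and 4794, 3591, 4979 and 4057 CPM in nonclassical monocytes, and their part in the *Cxcl2* levels was not tested.

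Among tissue macrophages, interstitial macrophages were at 1740, 5821, 1955 and 3716 CPM of *Cxcl2*, with a 3.35-fold (3.18 to 3.52) rise in young cells and a ratio of 1.90 (1.81 to 2.00) in aged cells. In each library, 5 cells held 38.5% to 54.0% of these UMIs, and a single young ventilated cell held 1134. Alveolar macrophages were at 575, 1113, 730 and 886 CPM, with ratios of 1.94 (1.80 to 2.09) and 1.21 (1.11 to 1.33). In interstitial macrophages, *Cxcl1* and *Cxcl2* rose in young cells beside 8.90% of tested genes, and *Cxcl1* rose in aged cells beside 2.98%. Of the early dissociation genes, 9 of 13 fell in young interstitial macrophages, beside 9.83% of tested genes, and their summed level was 14178 CPM before and 5251 CPM after ventilation. In aged cells, 1 of 13 fell, beside 3.58% (8316 and 6881 CPM).

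In other classes, *Cxcl2* was low or rested on few cells. B cells were at 2.01 to 9.78 CPM. In T cells of the young ventilated library, 426 of 506 UMIs were in 1 cell, and in smooth muscle cells, 87 of 94. Basophils, at 272, 1468, 418 and 0 CPM, had 18, 20, 22 and 6 cells, and the aged ventilated level was at least 4.56-fold lower than the aged nonventilated level when 0 UMIs were taken as 3. Dendritic cells were at 95.5, 30.3, 22.6 and 34.1 CPM, so that *Cxcl2* fell in young cells, where 1 cell held 28 of the 68 nonventilated UMIs. In young dendritic cells and aged basophils, it passed the floor only through the nonventilated library and so had to differ. The share of all tested genes that fell was not computed for either class.

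**Figure D3:**
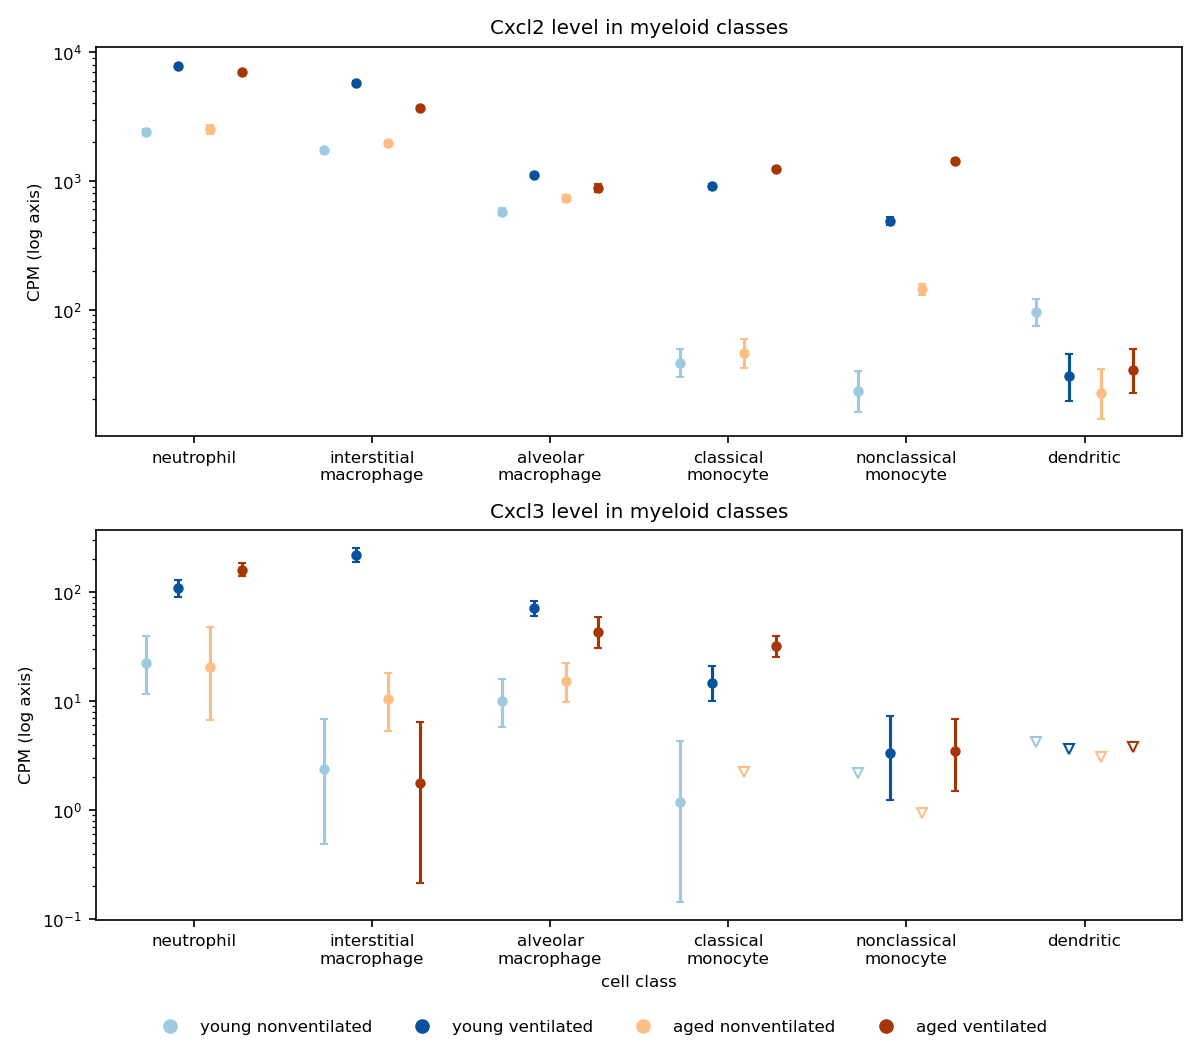
*Cxcl2* and *Cxcl3* in CPM (log axis) in the myeloid classes of each library, with exact 95% counting intervals; open triangles stand for 0 UMIs and are drawn at the level of 3 counts. Both ventilated libraries lie above both nonventilated libraries for *Cxcl2* in neutrophils (7839 and 7062 against 2392 and 2511 CPM) and in both monocyte classes.

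*Cxcl3*, a close relative of *Cxcl2*, was counted in the same cells at far fewer UMIs. In neutrophils it was at 22.5 CPM (11.6 to 39.2) without and 108 (89.3 to 129) with ventilation in young cells, and 20.5 (6.66 to 47.9) without and 160 (139 to 183) with it in aged cells. The rise was 4.80-fold (2.65 to 9.57) in young and 7.80-fold (3.29 to 24.3) in aged cells, and rested on 12 and 5 UMIs in the nonventilated libraries. *Cxcl3* passed the floor only through the ventilated libraries and so had to differ. The aged log2 ratio went from 2.71 to 1.11 after thinning to 1000 UMIs per cell and no longer counted as a rise. Interstitial macrophages were at 2.37, 220, 10.4 and 1.76 CPM, past the floor in young cells through the ventilated library alone, and 5 cells held 82.5% of the 194 UMIs of the young ventilated library. Alveolar macrophages were at 9.95, 71.2, 15.2 and 43.2 CPM, under the floor for a call within each age. No *Cxcl3* UMI was counted in B cells or adventitial fibroblasts.

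*Cxcl5*, best known as an epithelial ligand, was the rarest member, with 209 UMIs in the cells kept. None was counted in the cells kept of the nonventilated libraries, which had 3 (young) and 2 (aged) UMIs in barcodes that the filter left out. Interstitial macrophages had 75 UMIs in 2 of 58 young ventilated cells and 30 UMIs in 3 of 67 aged ventilated cells. Adventitial fibroblasts had 90 UMIs in 4 of 51 young ventilated cells and 4 UMIs in 2 of 36 aged ventilated cells. Against a floor of 3 counts, the young rise was at least 77.3-fold in adventitial fibroblasts and the young ratio at least 36.0-fold in interstitial macrophages. The sums give the level in a handful of cells rather than in a class. AT2 cells, with 11 to 25 cells per library, had 1 *Cxcl5* UMI in all.

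*Cxcl15* marked AT2 cells, which make surfactant. It was at 3549 CPM (3328 to 3781) without and 2501 (2355 to 2655) with ventilation in young cells, and 4100 (3900 to 4309) without and 3283 (3063 to 3515) with it in aged cells. The ratio after ventilation was 0.705 (0.646 to 0.770) in young and 0.801 (0.735 to 0.872) in aged cells, neither past 2-fold, from 17, 25, 23 and 11 cells. Alveolar type I cells were at 12.3, 79.5, 16.5 and 52.6 CPM, and B cells at 0 to 2.44 CPM. Of all *Cxcl15* UMIs, 71.4% were in barcodes that the cell filter left out, the largest such share of the 8 members.

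*Cxcr2*, the receptor for the ELR ligands, was confined largely to neutrophils. Their level was 1149 CPM (1060 to 1244) without and 981 (923 to 1041) with ventilation in young cells, and 726 (623 to 841) without and 1192 (1134 to 1253) with it in aged cells. The ratio after ventilation was 0.853 (0.772 to 0.944) in young and 1.64 (1.40 to 1.93) in aged cells, neither past 2-fold. The young log2 ratio of -0.23 turned to 0.08 once the median over all tested genes was subtracted, and the aged one went from 0.71 to 1.06. Nonventilated aged neutrophils, 59 cells, had the lowest level, 0.632-fold (0.531 to 0.748) that of young ones. The share of neutrophils with a *Cxcr2* UMI was 94.2%, 85.1%, 83.1% and 89.8%, and 67.5%, 57.0%, 46.6% and 57.0% after thinning. B cells had at most 1 UMI in any library.

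Neutrophils made up 121 of 2533 cells (4.78%, 3.98% to 5.68%) in the young nonventilated, 222 of 2976 (7.46%, 6.54% to 8.46%) in the young ventilated, 59 of 2480 (2.38%, 1.82% to 3.06%) in the aged nonventilated and 256 of 2171 (11.8%, 10.5% to 13.2%) in the aged ventilated library. The aged pair thus spanned a wider range than the young pair. The *Cxcr2* levels of whole libraries were in the same order as these shares. Nonclassical monocytes had 63 *Cxcr2* UMIs in the aged ventilated library (27.3 CPM) and 1.27 to 14.7 CPM in the others, and the neutrophil markers in this class were also the highest there, at 4103 CPM. The part of neutrophil RNA in that value was not tested.

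*Cxcr4* ran lower in ventilated neutrophils. It was at 462 CPM (407 to 524) without and 173 (150 to 200) with ventilation in young cells, and 369 (297 to 454) without and 194 (171 to 219) with it in aged cells, so that both ventilated libraries lay below both nonventilated ones. It fell 2.67-fold (2.20 to 3.24) in young cells and was 1.91-fold (1.48 to 2.43) lower in aged cells. It fell in young neutrophils beside 21.0% of all tested genes of this class, and did not pass 2-fold in aged neutrophils, where 22.0% fell. A fall of this size was therefore common in this class. The share of neutrophils with UMIs of both *Cxcr2* and *Cxcr4* was 62.8% (53.6% to 71.4%) and 34.2% (28.0% to 40.9%) in young, and 61.0% (47.4% to 73.5%) and 38.7% (32.7% to 44.9%) in aged cells, nonventilated first. The share with both *Cxcl2* and *Cxcr2*, the ligand and its own receptor, was 71.1%, 82.4%, 52.5% and 86.7%.

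**Figure D4:**
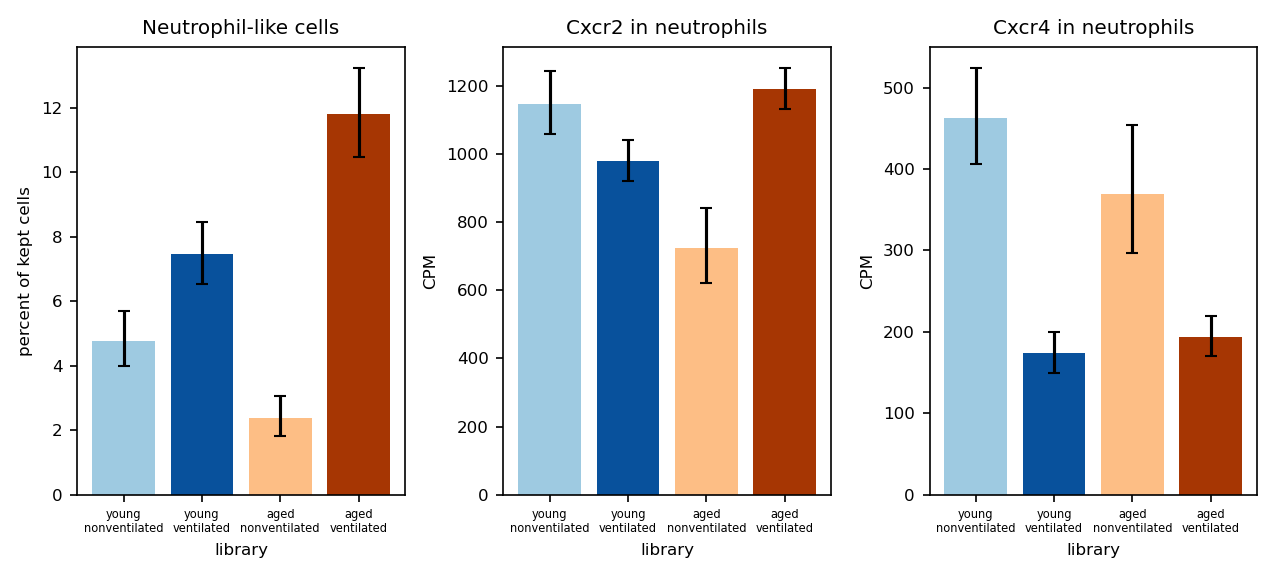
*Cxcr2* and *Cxcr4* levels in neutrophils (CPM) and the share of neutrophils among the cells kept (%), by library, with exact 95% intervals that cover counting error. *Cxcr4* is lower in both ventilated libraries (173 and 194 CPM) than in both nonventilated libraries (462 and 369 CPM), while *Cxcr2* is lowest in the aged nonventilated library (726 CPM).

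*Cxcl12* was the vascular member and the ligand of *Cxcr4*. In general capillary cells, the progenitor-like endothelium of the alveolar capillaries, it was at 479 CPM (460 to 499) without and 145 (135 to 156) with ventilation in young cells, and 626 (604 to 650) without and 235 (219 to 251) with it in aged cells. It fell 3.30-fold (3.04 to 3.59) in young and 2.67-fold (2.47 to 2.89) in aged cells. It fell where 9.79% of tested genes fell in young and 6.16% in aged cells. The aged level was higher at both settings, by 1.31-fold (1.24 to 1.38) without and 1.62-fold (1.47 to 1.78) with ventilation, under the 2-fold limit. The share of cells with a *Cxcl12* UMI was 67.1%, 36.8%, 75.2% and 52.1%, and 29.0%, 11.03%, 36.97% and 19.1% after thinning, at median depths of 6066 to 7379 UMIs, against 0% to 2.11% in B cells. Nonventilated and ventilated cells of this class lay in different clusters. The early dissociation genes summed to 8444, 8753, 9520 and 7206 CPM in this class, and 2 of 14 rose in young and 1 of 14 in aged cells, beside 9.35% and 4.73% of tested genes.

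Other endothelial cells also had lower levels after ventilation, but only venous cells passed the limit for a fall. Venous endothelial cells were at 272, 80.4, 409 and 136 CPM of *Cxcl12*, 3.38-fold (2.50 to 4.66) lower after ventilation in young and 3.00-fold (2.44 to 3.71) lower in aged cells. Aerocytes, the large gas-exchange capillary cells, were at 69.3, 15.7, 64.1 and 38.1 CPM, and lymphatic endothelial cells at 77.7, 15.1, 50.3 and 32.7 CPM. *Cxcl12* was under the floor for a call after ventilation in young aerocytes and in lymphatic cells at both ages, and did not pass 2-fold in aged aerocytes. The ratios in venous cells were like those in general capillary cells. The share of all tested genes that fell was not computed for venous cells. The part of the cluster split in the general capillary levels was not tested.

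Fibroblasts also held *Cxcl12*. Adventitial fibroblasts were at 183, 63.8, 217 and 173 CPM. Their level fell 2.87-fold (2.15 to 3.92) in young cells, and the aged ratio was 0.799 (0.632 to 1.00). Alveolar fibroblasts were at 22.2, 32.3, 30.4 and 62.8 CPM, where the ratio was 1.45 (1.11 to 1.91) in young and 2.06 (1.61 to 2.66) in aged cells, under the floor for a call. At a clustering resolution of 0.18, the alveolar fibroblast class took in other cells, and its *Cxcl12* turned to 83.4, 35.7, 97.7 and 77.0 CPM, lower with ventilation at both ages. Cells of the adventitial class with UMIs of both *Cxcl1* and *Cxcl12* made up 29.9%, 35.3%, 54.4% and 44.4%, so both kinds of ligand were counted in the same fibroblasts.

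**Figure D5:**
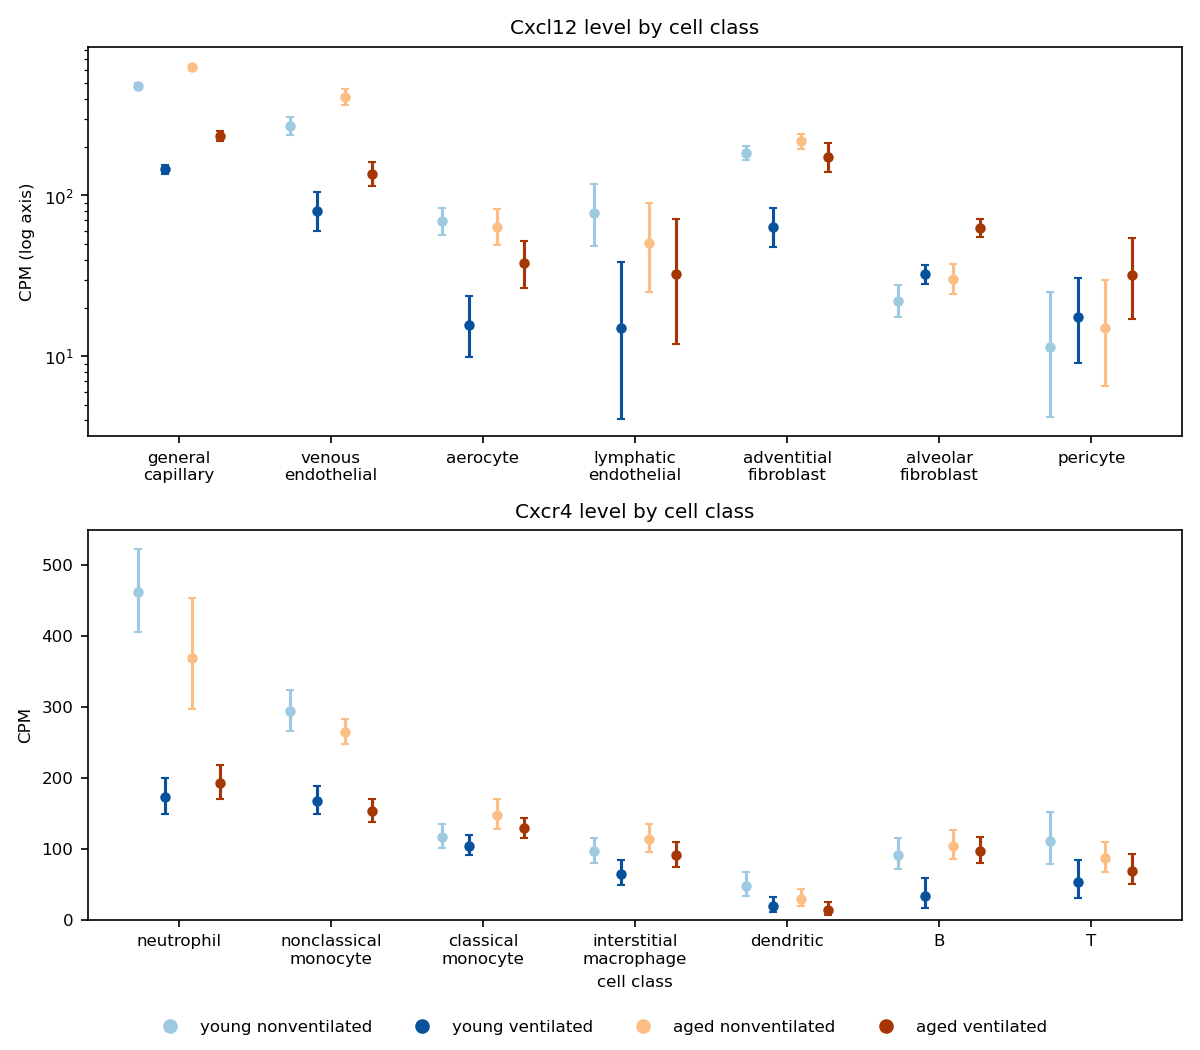
*Cxcl12* in endothelial and mesenchymal classes (CPM, log axis) and *Cxcr4* in leukocyte classes (CPM, linear axis) by library, with exact 95% counting intervals. *Cxcl12* in general capillary cells is lower with ventilation at both ages (145 against 479 CPM in young and 235 against 626 CPM in aged cells).

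*Cxcr4* was also counted in other leukocytes. Nonclassical monocytes were at 295, 168, 265 and 154 CPM, 1.75-fold (1.51 to 2.04) lower after ventilation in young and 1.73-fold (1.52 to 1.96) lower in aged cells. It did not pass 2-fold there, where 10.4% of tested genes fell in young and 8.06% in aged cells. The young log2 ratio of -0.81 passed 2-fold, at -1.30, when each cell was thinned to 1000 UMIs, and was -0.30 at a clustering resolution of 0.18. Classical monocytes were at 117, 104, 148 and 129 CPM, interstitial macrophages at 96.3, 64.7, 114 and 90.8 CPM, B cells at 91.7, 32.8, 105 and 96.6 CPM and T cells at 111, 52.5, 86.7 and 69.1 CPM. Both lymphocyte classes were more than 2-fold lower in the young ventilated library than in the young nonventilated one, from 11 UMIs in B cells and 17 in T cells. In young B cells, *Cxcr4* passed the floor only through the nonventilated library and so had to differ. The share of all tested genes that fell was not computed for either lymphocyte class. Pericytes were at 161, 116, 111 and 181 CPM. The receptor was near 0 in alveolar fibroblasts, at 0.292 to 1.07 CPM, and in general capillary cells, at 1.29 to 6.36 CPM.

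The gene lists are read against the share of all tested genes of a class that rose or fell after ventilation. Rises made up 10.2% in young and 6.08% in aged AT2 cells, and the shares for the other classes are those given above. Falls made up 11.4% in young and 7.34% in aged alveolar fibroblasts, and 15.3% and 9.24% in adventitial fibroblasts. They made up 9.36% and 12.9% in classical monocytes and 10.8% and 9.70% in AT2 cells. The median log2 ratio over all tested genes, young before aged, was 0.02 and -0.01 in alveolar fibroblasts, 0.06 and 0.05 in adventitial fibroblasts and -0.01 at both ages in interstitial macrophages. It was -0.01 and -0.13 in classical monocytes, -0.12 and -0.14 in nonclassical monocytes, -0.07 and -0.05 in general capillary cells and 0.02 and -0.10 in AT2 cells. List genes at a low level in 1 library passed the floor only through the other, so the counts are descriptions.

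Of 15 other CXC ligands and receptors, 14 were in the tables. *Cxcl14*, a ligand made by stroma, rose at both ages in alveolar fibroblasts (3.34-fold in young and 3.69-fold in aged cells) and adventitial fibroblasts (3.22-fold and 2.33-fold), where *Cxcl1* rose in young cells and did not pass the limit in aged cells. *Cxcl10*, which draws T cells through CXCR3, rose 5.10-fold in young alveolar fibroblasts and fell in aged adventitial fibroblasts, from 192 to 12.6 CPM. In interstitial macrophages, *Cxcl13*, which draws B cells, rose from 39.8 to 1696 CPM in aged cells. The aged nonventilated level was low beside the young nonventilated one, at 224 CPM, so the size of this rise is not particular to age alone. Of the list, 3 of 5 tested rose in young and 4 of 5 in aged interstitial macrophages, with median log2 ratios of 2.02 and 1.41. In alveolar fibroblasts 2 of 2 rose in young and 1 of 2 in aged cells (medians of 2.04 and 0.47), and in adventitial fibroblasts 2 of 2 rose in young cells, while 1 rose and 1 fell in aged cells (1.61 and -1.26). In neutrophils 1 of 2 and 2 of 2 rose (2.96 and 2.24), and in general capillary cells 2 of 3 and none of 1 (3.14 and 0.90). In classical monocytes 1 of 1 and 2 of 2 rose (9.64 and 3.45), in nonclassical monocytes none could be tested in young cells and 1 of 1 rose in aged cells (4.53), and in AT2 cells 1 of 1 and none of 1 rose (1.99 and 0.60).

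Genes of neutrophil recruitment, a list of 23 adhesion molecules, cytokines and receptors, were taken next. In neutrophils, 5 of 15 tested rose and 1 fell in young cells, with a median log2 ratio of -0.01 (-0.31 over all tested genes), and 4 of 15 rose in aged cells, with a median of 0.23 (-0.35). *Lcn2*, an iron-scavenging granule protein, rose 14.4-fold in young and 12.8-fold in aged neutrophils. *Fpr2* and *Fpr1*, receptors for formyl peptides, were next, at 3.42-fold in young and 4.87-fold in aged cells. In classical monocytes, 7 of 14 rose and 2 fell in young and 9 of 15 rose and 1 fell in aged cells (medians of 0.87 and 1.10), and in nonclassical monocytes 6 of 12 and 7 of 13 rose (1.22 and 1.27). In interstitial macrophages, 1 of 9 and 2 of 8 rose (0.31 and 0.75). In alveolar fibroblasts 2 of 4 and 2 of 5 rose (1.27 and 0.45), and in adventitial fibroblasts 2 of 4 rose in young cells, while 1 of 4 rose and 1 fell in aged cells (1.28 and -0.15). *Il6*, a cytokine made by stroma, rose 3.84-fold in young alveolar and 4.43-fold in young adventitial fibroblasts. In general capillary cells none of 2 rose or fell at either age (medians of -0.13 and -0.25), nor did any of 3 in young or of 2 in aged AT2 cells (0.13 and -0.01).

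In the remaining classes, 2 of 12 NF-kappaB feedback genes rose in neutrophils at each age (medians of 0.50 and 0.72), 5 and 2 of 12 in young and aged classical monocytes (0.89 and 0.45), and 6 and 1 of 12 in young and aged nonclassical monocytes (1.02 and 0.34), where *Rel*, a subunit of the factor, fell in aged cells. None of 12 rose or fell in interstitial macrophages at either age, with medians of 0.16 and -0.16. *Cxcl1* rose in that class at both ages, and a link between these genes and *Cxcl1* was not tested. In general capillary cells, 1 of 9 rose in young and none of 11 in aged cells (0.34 and 0.05), and in AT2 cells 2 of 6 and 1 of 5 rose (0.02 and 0.65). Of the early dissociation genes in AT2 cells, 2 of 14 rose and 1 fell in young and 2 of 15 rose in aged cells (-0.26 and 0.22). *Tnip1* led in young nonclassical (5.20-fold) and classical (7.39-fold) monocytes.

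Genes whose levels were most like those of each member over 76 sums (19 classes of at least 10 cells in each of 4 libraries, 9732 genes) described the same cell types. These sums share libraries and classes, so the correlations are descriptions. *Cxcl1* was closest to *Cyp7b1* (Pearson r = 0.768), *Col27a1* (0.745) and *Col6a2* (0.729), and *Cxcl12* to *Uaca* (0.848), *Slc43a3* (0.841) and *Fmo1* (0.836). *Cxcl2* was closest to *Ccl3* (0.884), *C5ar1* (0.880) and *Il1rn* (0.873), and *Cxcl3* to *Il1rn* (0.829), *Cxcl2* (0.784) and *Ccr1* (0.782). *Cxcl15* was closest to the surfactant genes *Sftpa1* (0.986) and *Sftpc* (0.982) and to *Sfta2* (0.982). *Cxcr2* was closest to *Retnlg* (0.981), *Stfa2l1* (0.980) and *Cstdc4* (0.972), and *Cxcr4* to *Rassf5* (0.865), *Pik3cd* (0.865) and *Arhgap9* (0.852). *Cxcl5*, with the fewest UMIs, had the loosest matches: *Ccl7* (0.648), *Procr* (0.598) and *Cxcl13* (0.566).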

How the data were processed

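The authors aligned reads to mm10 with Cell Ranger 7.0.0 and deposited raw UMI counts per gene and barcode for 4 libraries, with no normalization. All other values were computed here. The filter kept barcodes that had between 200 and 5000 genes, no more than 10% of UMIs from mitochondrial genes, and a total no higher than 28597 UMIs, the 93rd percentile over all barcodes. It left out 5268 barcodes. The barcodes over which the study took this percentile were not clear from its methods. Clustering used Seurat 5.3.0 on R 4.3.3, with Matrix 1.6.5 and SeuratObject 5.2.0 (2000 variable genes without the 8 members, 37 components, resolution 0.5, since the study's 0.18 joins classes). Clusters were named from marker lists by a rule set after they were seen. Other steps used scipy 1.17.1, scanpy 1.11.5, pandas 2.3.3, numpy 2.4.6 and matplotlib 3.10.9 on Python 3.11.15. Scrublet called 38 cells (0.374%), too few to have worked, so doublets were kept. Intervals are exact (Poisson, Clopper-Pearson or conditional binomial) at 95%, and a count of 0 was taken as 3 for folds. Thinning left out 573 cells below 1000 UMIs. Likeness was Pearson r of log2(CPM + 10) among genes of at least 10 CPM. The interval and call rules were run on simulated sums that held counting error alone, the error the intervals assume. That run therefore says nothing about UMIs gathered in few cells or differences between mice. The members and the 4 gene lists (other CXC genes, neutrophil recruitment, NF-kappaB feedback and early dissociation response) were chosen with earlier results of these data known. Of the lists, the 2 genes with the largest rise and the 2 with the largest fall past the limit were open to naming, and for each member the 3 most like genes. Alternatives varied the cell filter, resolution, variable genes, scaling, weighting, thinning, background RNA, doublets, gene filter and fold.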

Additional observations from a re-analysis of the deposited data

Results flagged for a closer look

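In 5 flagged cases, all with the member past the floor at both ages, the log2 ratio after ventilation had opposite signs in young and aged cells. Each came from 1 library per group, so that the difference was not tested. Cases with a member under the floor at either age, such as *Cxcl2* in dendritic cells, are not listed here. *Cxcl1* had 3.54 in young and -0.72 in aged adventitial fibroblasts, and 1.84 and -0.83 in smooth muscle cells. *Cxcl2* had 2.36 and -3.82 in basophils, where the aged ventilated library held 6 cells and 0 UMIs of it. The value of -3.82 comes with 1 UMI added to each sum and is no bound, and with 0 UMIs taken as 3 the level was at least 4.56-fold lower. *Cxcr2* had -0.23 and 0.71 in neutrophils, and *Cxcr4* had -0.47 and 0.70 in pericytes. The opposite signs of *Cxcr2* were lost once the median over all tested genes was subtracted, where the young value turned to 0.08.

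The barcodes outside the cell filter, which were used in no comparison, also held members. They had 6305 UMIs of *Cxcl1*, 12311 of *Cxcl2*, 337 of *Cxcl3*, 110 of *Cxcl5*, 11812 of *Cxcl15*, 6928 of *Cxcl12*, 200 of *Cxcr2* and 1557 of *Cxcr4*. The aged ventilated library had 73 of its *Cxcl5* UMIs in these barcodes and 36 in the cells kept. In the same barcodes, *Cxcl12* was at 129 and 36.7 CPM in the young and 144 and 62.8 CPM in the aged libraries, nonventilated first, and *Cxcl1* was at 34.8 and 153 CPM in the young and 93.1 and 70.1 CPM in the aged libraries. *Cxcl2* was at 92.2 and 206 CPM in the young and 179 and 203 CPM in the aged libraries. Its aged pair thus differed far less there than in the cells kept, which were at 197 and 933 CPM. The mix of cells in these barcodes was not looked at.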

How the results depend on the processing

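No paired analysis was possible because each group was 1 library, and for the same reason none could be left out. Of the 8 members, each taken in its main class, the count that rose in young cells went from 3 to 2 when cells were thinned and to 4 with the UMI percentile taken over the barcodes left, without the cells of highest Scrublet score or with the mean of per-cell CPM. The count that rose in aged cells went from 2 to 1 (*Cxcl3* lost) when thinned, and to 3 with the median subtracted or with the mean of per-cell CPM. The count that fell in young cells went from 1 to 2 when thinned, and the count that fell in aged cells from 1 to 2 with the percentile over the barcodes left. The count lower in aged than young ventilated cells went from 1 to 2 under that percentile and to 0 with a mitochondrial limit of 5% or at resolution 0.18. Members with more UMIs in 1 class than in all others together went from 4 to 2 at the 5% limit, where no cluster was named AT2. At resolution 0.18, the alveolar fibroblast class took in other cells, and its *Cxcl1* was at 87.6, 557, 413 and 280 CPM. No member that rose or fell in its main class changed sign under the alternatives run.

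Genes called without a gene filter, and then at 1.5-fold, instead of the main count, young before aged, were as follows. Rises in alveolar fibroblasts went from 412 to 1247 and 799, and from 216 to 763 and 463. In adventitial fibroblasts they went from 556 to 1389 and 997, and from 320 to 986 and 731. In interstitial macrophages they went from 286 to 879 and 617, and from 99 to 431 and 294. In neutrophils they went from 267 to 655 and 411, and from 195 to 341 and 353. In nonclassical monocytes they went from 298 to 944 and 567, and from 205 to 743 and 429. In classical monocytes they went from 368 to 1044 and 724 (219 at resolution 0.18), and from 352 to 900 and 688. Falls in neutrophils went from 522 to 1577 and 903, and from 561 to 1580 and 892. In nonclassical monocytes they went from 374 to 1152 and 814, and from 283 to 1158 and 670. In general capillary cells they went from 358 to 2823 and 749, and from 224 to 1588 and 560. In alveolar fibroblasts they went from 398 to 3072 and 747, and from 255 to 1593 and 533. In adventitial fibroblasts they went from 535 to 2384 and 873, and from 320 to 1239 and 634. In interstitial macrophages they went from 316 to 1411 and 665, and from 119 to 727 and 383. In classical monocytes they went from 328 to 1367 and 674 (531 at resolution 0.18), and from 454 to 1652 and 1005. In AT2 cells they went from 320 to 808 and 518, and from 268 to 651 and 434. Rises in general capillary cells went from 342 to 960 and 607, and from 172 to 694 and 420, and in AT2 cells from 300 to 618 and 507, and from 168 to 401 and 312. For age without ventilation, rises went from 23 to 348 and 74 in alveolar and from 46 to 421 and 144 in adventitial fibroblasts, and with ventilation falls in adventitial fibroblasts went from 119 to 382 and 346.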
